A study of Mus musculus with 4 samples.

Results

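The 10 genes described here are markers of intestinal stem cells and targets of Wnt signalling: Lgr5, Ascl2, Sox9, Olfm4, Smoc2, Axin2, Rnf43, Znrf3, Clca3b and Cdca7. They were taken by symbol from a list and are 10 of the 28694 genes in the tables. The study sorted living intestinal epithelial cells of RedMUC298trTg mice, 6 to 8 weeks old, by presence or absence of mCherry, the reporter this transgenic strain carries as a mark of goblet cells, and profiled single cells in droplets from the 3′ end of the RNA. Distal colon (DC) and section 8 of the small intestine (Si8) gave 2 libraries each, called DC 1, DC 2, Si8 1 and Si8 2, and all 4 share strain, age and reporter. The sources used here do not state whether a library is made of mCherry-positive cells only, nor the number of mice in it. Every p-value therefore measures the spread between these libraries, which may be technical.

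Wnt ligands bind Frizzled receptors together with Lrp5 or Lrp6 and keep beta-catenin from being degraded, so that it enters the nucleus and switches on target genes through TCF and LEF factors. In the gut this signal is strongest at the base of the crypt, where stem cells divide and from where their daughters move up and become absorptive or secretory cells, goblet cells among them. Several target genes feed back on the pathway, and others serve as marks of the stem cell.

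Lgr5, the R-spondin receptor that marks crypt base stem cells, lies on chromosome 10 from 115450311 to 115587780 (minus strand) (GRCm38, GENCODE M21, as for all genes here). Of the transcription factors, Ascl2 lies on chromosome 7 from 142966829 to 142969264 (minus strand) and Sox9 on chromosome 11 from 112782224 to 112787760 (plus strand). Ascl2 maintains the stem cell state, and Sox9 marks crypt cells and is needed for Paneth cells. Olfm4, a secreted glycoprotein used as a stem cell marker of the small intestine, lies on chromosome 14 from 79984081 to 80023139 (plus strand), and Smoc2, a secreted matricellular protein, on chromosome 17 from 14279506 to 14404790 (plus strand). The feedback inhibitors are Axin2, a scaffold of the complex that degrades beta-catenin, on chromosome 11 from 108920349 to 108950783 (plus strand), and the E3 ligases Rnf43, on chromosome 11 from 87662722 to 87735539 (plus strand), and Znrf3, on chromosome 11 from 5276324 to 5444847 (minus strand), which take Frizzled off the cell surface. Cdca7, a gene linked to cell division, lies on chromosome 2 from 72476159 to 72486893 (plus strand). Clca3b, of the family of calcium-activated chloride channel regulators, lies on chromosome 3 from 144822623 to 144849357 (minus strand). Whether its reads were separated from those of closely related Clca genes was not tested, so its counts are uncertain.

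The sequences before the start sites of 3 members are shown, Olfm4 and Axin2 because they carry region differences below and Ascl2 because it ranked first in likeness to Lgr5 among genes of at least 20 CPM in both regions. They are the 250 bases upstream of the RefSeq start (GRCm38.p6), 5′ to 3′ on the gene's strand: Olfm4 at chr14:80000052-80000301 (plus strand), inside the interval GENCODE gives the gene, Axin2 at chr11:108920099-108920348 (plus strand) and Ascl2 at chr7:142969265-142969514 (minus strand).
Olfm4: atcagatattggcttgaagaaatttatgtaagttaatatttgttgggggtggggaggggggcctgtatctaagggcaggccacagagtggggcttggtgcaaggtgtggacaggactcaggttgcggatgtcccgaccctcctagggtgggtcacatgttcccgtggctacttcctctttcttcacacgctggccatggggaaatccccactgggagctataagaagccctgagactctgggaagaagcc
Axin2: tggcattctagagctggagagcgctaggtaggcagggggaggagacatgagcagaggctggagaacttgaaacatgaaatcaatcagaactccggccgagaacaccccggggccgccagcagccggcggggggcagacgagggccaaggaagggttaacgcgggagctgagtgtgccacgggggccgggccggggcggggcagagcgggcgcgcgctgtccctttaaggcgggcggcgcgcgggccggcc
Ascl2: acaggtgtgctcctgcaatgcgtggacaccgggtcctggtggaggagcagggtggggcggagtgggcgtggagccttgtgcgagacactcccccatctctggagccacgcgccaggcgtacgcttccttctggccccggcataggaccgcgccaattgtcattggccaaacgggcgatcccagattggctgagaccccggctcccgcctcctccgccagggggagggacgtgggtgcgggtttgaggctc

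Capitals would mark 4 TCF/LEF words on either strand (the word CTTTGAA, the word CTTTGAT, the word CTTTGTA and the word CTTTGTT), and there are none in these windows. RefSeq gave 7 windows for 6 of the members, with 2 for Rnf43, and 0 of the 7 held such a word, beside 14.8% of all 32851 windows of this length.

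After filtering, 1831, 4724, 1491 and 2197 cells were kept in DC 1, DC 2, Si8 1 and Si8 2, with a median of 13481, 12288, 17817 and 21037 UMIs per cell, and any pair of libraries shared 1 to 16 barcodes. Values below are in this order of libraries. All 30 goblet markers were detected in every library and together reached 61253, 53426, 223334 and 154408 CPM, the UMIs of a gene scaled to a common library total. Clustering without any listed gene gave 11 clusters, and not all of them fit the goblet label. Goblet-like clusters held 25.1%, 24.2%, 39.5% and 38.8% of the cells, an absorptive-like cluster (cluster 1) 11.4%, 20.1%, 7.38% and 13.7% and cycling-like clusters 6, 7 and 10 21.7%, 22.5%, 11.9% and 25.2%. Clusters 2 and 4 were goblet-like in both regions and cluster 5 only in Si8, so goblet-like cells are not the same set of clusters on the 2 sides. Cluster 3 was Paneth-like in Si8 and unnamed in DC, and clusters 8 and 9 were unnamed in both. Unnamed clusters were not free of markers: among their 50 leading genes, clusters 3, 5 and 8 of DC held 8, 4 and 4 goblet markers and cluster 9 of Si8 7 cycling markers. No cluster took the name stem-like from its markers at any of the 3 resolutions tried. Si8 1 stands apart in its makeup: clusters 6, 7, 9 and 10 held 14.7% of its cells, against 27.1%, 29.2% and 32.0% in DC 1, DC 2 and Si8 2, and immune markers summed to 384 CPM there and to at most 11.8 CPM elsewhere. Several calls that rest on 1 library are given with and without it.

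When all kept cells were summed, Sox9 was higher and Olfm4 lower in the colon than in the small intestine. Sox9 stood at 147 and 125 CPM in the colon libraries and at 45.9 and 44.9 CPM in Si8, so both colon values lay far above both Si8 values. Its log2 fold change, DC minus Si8 throughout, was 1.16 (SE 0.15, adjusted p = 0.0051 with the edgeR quasi-likelihood test over all tested genes). Olfm4 had 0 UMIs among 89278024 in the colon and 19 and 125 UMIs in Si8 (0.745 and 2.39 CPM). Against a floor of 3 UMIs over both colon libraries together, it was at least 55.1-fold higher in the 2 Si8 libraries pooled (adjusted p = 0.0097 with edgeR). Most of the pooled UMIs came from Si8 2, so this bound does not hold for Si8 1 by itself. Fewer cells of a type and less RNA per cell cannot be told apart in such sums.

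The other 8 members did not pass the test here. Overlap between the regions is read here and below on CPM, which lack the TMM scaling factors of the fits. It can therefore differ from overlap on the scale of the test. The share of all genes without overlap was not counted, so overlap describes single genes only. Lgr5 stood at 3.47, 2.90, 1.14 and 4.78 CPM, with 91, 183, 29 and 250 UMIs behind the values, and the Si8 libraries lay on either side of the colon ones. Ascl2 stood at 6.18, 5.92, 0.823 and 4.13 CPM, where the regions did not overlap although the test was not passed (log2 fold change 0.84, SE 0.61, adjusted p = 0.37 with edgeR). Smoc2 stood at 24.2, 23.3, 15.5 and 25.9 CPM, with the colon values between those of Si8.

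Of the feedback genes, Axin2 stood at 14.9, 14.2, 11.4 and 24.6 CPM, again with the colon values between those of Si8. The ligase gene Rnf43 stood at 23.5, 18.2, 9.29 and 12.1 CPM (log2 fold change 0.55, SE 0.19, adjusted p = 0.095 with edgeR) and its partner Znrf3 at 7.51, 5.85, 2.82 and 4.17 CPM (0.51, SE 0.26, adjusted p = 0.22). Both had their colon values above both Si8 values without passing the test. Clca3b stood at 70.9, 91.1, 58.8 and 149 CPM and Cdca7 at 25.1, 25.6, 12.6 and 27.3 CPM, and both overlapped between the regions.

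In this comparison 1 of the 10 members was higher and 1 lower, beside 24.9% of the 13084 genes tested (12.9% higher, 12% lower), a share near the background. The median log2 fold change was -0.14 over the members and 0.04 over all genes. With library totals in place of TMM scaling the median of all genes moved to 0.45, 4167 genes were higher and 1004 lower in place of 1687 and 1566, and Rnf43 and Znrf3 passed as higher (adjusted p = 0.017 and 0.048 with edgeR). The fitted values of Lgr5, Smoc2 and Cdca7 change sign between these scalings, and the summed goblet markers given above differ between the regions along with that shift.

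Which Si8 library was kept decided the calls of several members. Without Si8 1, Lgr5 (-0.95, adjusted p = 0.044), Axin2 (-1.11, adjusted p = 0.0021) and Clca3b (-1.23, adjusted p = 0.0032) also passed as lower in the colon with edgeR, the lone Si8 library being assumed to vary like the colon ones. Without Si8 2, Ascl2 passed as higher (2.38, adjusted p = 0.0023 with edgeR) and the fitted value of Lgr5 turned to 0.98. Sox9 and Olfm4 kept their direction and their call whichever of the 4 libraries was left out. Olfm4 was too low to be tested once cells were thinned or cycling-like cells left out.

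**Figure D1:**
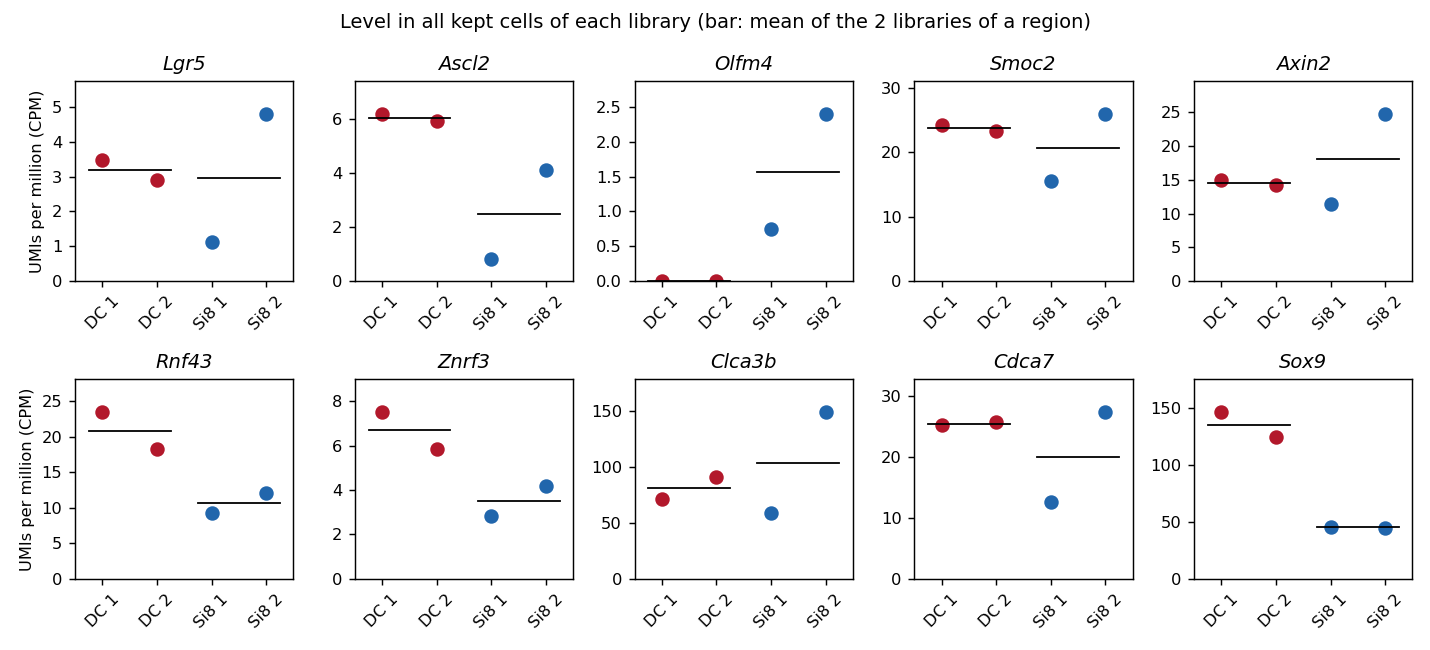
CPM of each of the 10 genes over all kept cells of each library, with the colon libraries in red, the Si8 libraries in blue and a bar at the mean of the 2 libraries of a region. Sox9 lies at 125 to 147 CPM in the colon and at 44.9 to 45.9 CPM in Si8, Olfm4 is at 0 in DC, and Si8 1 lies below Si8 2 for each gene but Sox9.

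Lgr5 was rare, and several other members stood beside it in the same cells. An Lgr5 UMI was held by 59, 131, 23 and 128 of the kept cells, a share of 3.22%, 2.77%, 1.54% and 5.83%. The 95% intervals (exact Clopper-Pearson, which cover counting error only) were 2.46 to 4.14%, 2.32 to 3.28%, 0.980 to 2.31% and 4.88 to 6.89%. In absorptive-like cells, where free RNA would also give UMIs, the share was 0.481% (1 of 208) and 0.211% (2 of 948) in the colon and 0 of 110 and 0 of 301 in Si8, which allow up to 2.73% and 0.997% (3 over the number of cells, a different bound from the intervals), at median depths of 15020, 13556.5, 19058 and 24460 UMIs. Cells with an Lgr5 UMI were deeper, at a median of 23466, 18570, 24577 and 28725 UMIs against 13394.5, 12166, 17721.5 and 20883 in the other cells, so co-detection was read after thinning each cell to 5000 UMIs. Cells with fewer UMIs were left out of every thinned share, which kept 1699, 4541, 1315 and 2197 cells.

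Thinning left Lgr5 in 18 cells of DC 1, 39 of DC 2 and 45 of Si8 2, while Si8 1 had fewer than 10 and is left out here. Clca3b was found in 88.9%, 92.3% and 86.7% of the Lgr5-positive cells of these 3 libraries and in 13.6%, 20.4% and 30.4% of the negative ones. Smoc2 was found in 72.2%, 41.0% and 46.7% of the positive and 8.15%, 7.33% and 9.43% of the negative cells. For both genes the intervals of positive and negative cells were apart in all 3 libraries.

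Ascl2 was found in 3 of 18, 12 of 39 and 8 of 45 Lgr5-positive cells (16.7%, 30.8% and 17.8%) and in 2.26%, 2.35% and 1.63% of the negative ones. Cdca7 was found in 33.3%, 33.3% and 42.2% against 8.09%, 9.73% and 8.60%. Axin2 was found in 22.2%, 20.5% and 51.1% of the positive cells, with an interval of 35.8 to 66.3% in Si8 2, and in 5.29%, 5.86% and 8.46% of the negative ones. All 3 genes were more frequent beside Lgr5 than in all other thinned cells of each library, with overlapping intervals for Axin2 in DC 1 alone, and Axin2 beside Lgr5 was most frequent in Si8 2.

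Olfm4 was found beside Lgr5 in 5 of 45 thinned cells of Si8 2 (11.1%) and in 0 of 18 and 0 of 39 of the colon libraries. Before thinning, 4 of 23 Lgr5-positive cells of Si8 1 (17.4%) and 44 of 128 of Si8 2 (34.4%) held it, and 0 of 59 and 0 of 131 in the colon. Rnf43 was found in 16.7%, 12.8% and 24.4% of the thinned positive cells and in 11.5%, 8.40% and 4.65% of the negative ones, and the intervals were apart in Si8 2 alone. Znrf3 was found in 0 of 18, 3 of 39 and 5 of 45 positive cells and in 3.99%, 2.33% and 2.18% of the negative ones. Its intervals were likewise apart in Si8 2 alone. Sox9 was found in 61.1%, 64.1% and 53.3% of the positive and 45.6%, 42.4% and 17.1% of the negative cells, so in the colon it was frequent with and without Lgr5.

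Within cluster 9 alone most intervals overlapped. Lgr5 was left there in 13 thinned cells of DC 2 and 23 of Si8 2, and the other libraries had fewer than 10. Smoc2 was found in 46.2% and 52.2% of these and in 22.4% and 18.4% of the Lgr5-negative cells of the cluster. Axin2 was found in 23.1% and 52.2% against 14.7% and 24.0%, and Cdca7 in 53.8% and 47.8% against 24.1% and 39.2%. Clca3b was found in all of the positive cells and in 69.6% and 80% of the negative ones, and Rnf43 in 0 of 13 positive cells of DC 2. Of the 9 other members, only Clca3b in DC 2 and Smoc2 in Si8 2 had intervals of positive and negative cells that were apart.

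Leaving Sox9 aside, the other 9 members were counted per thinned cell. At least 4 of the 9 were found in 1.24%, 1.15%, 0.608% and 2.64% of the thinned cells, at least 2 in 12.2%, 13.1%, 6.46% and 17.4% and none of the 9 in 62.2%, 59.9%, 73.6% and 56.0%. At least 2 of the 9 were found in 55.4%, 50%, 45% and 65.5% of the cells of cluster 9, in 28.8%, 29.5%, 27.3% and 38.1% of the cycling-like cells and in 5.18%, 4.04%, 5.38% and 6.98% of the absorptive-like cells. In goblet-like cells the share was 1.33%, 2.17%, 0.551% and 1.17%. Over all thinned cells the shares with at least 2 and with at least 4 were smallest in Si8 1.

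**Figure D2:**
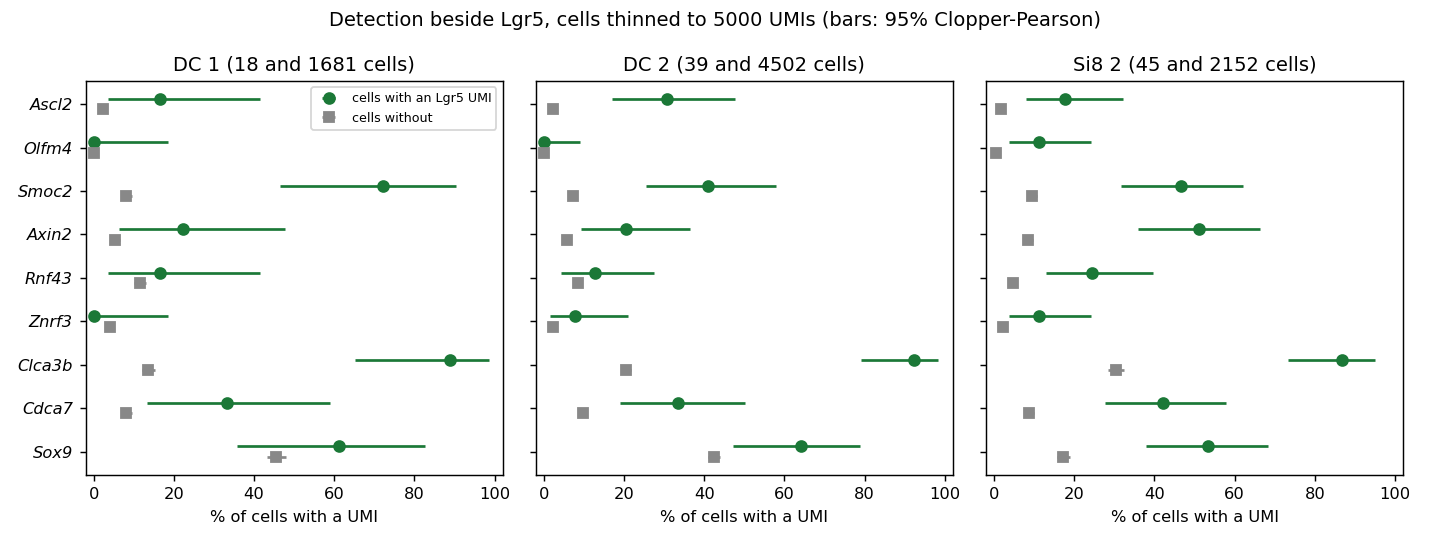
Percent of cells with a UMI of each of the other 9 members among cells with (green) and without (grey) an Lgr5 UMI, after thinning to 5000 UMIs, in the 3 libraries with at least 10 Lgr5-positive cells left, with 95% Clopper-Pearson bars. Clca3b is found in 86.7 to 92.3% of the Lgr5-positive cells, and Olfm4 beside Lgr5 in Si8 2 alone of these libraries.

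Although clustering had not used them, most members shared a place among the clusters. Clusters 6, 7, 9 and 10 held 97.8%, 93.4%, 69.0% and 82.4% of the Lgr5 UMIs, 90.0%, 86.2%, 70.5% and 84.7% of those of Clca3b and 74.2%, 75.5%, 71.4% and 88.0% of those of Ascl2. They held 39.2%, 43.2%, 33.8% and 55.9% of the Sox9 UMIs and 43.0%, 48.0%, 34.3% and 60.9% of those of Rnf43, which were spread more widely in each library. These clusters held 38.3%, 39.6%, 20.8% and 36.3% of all UMIs.

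Cluster 9 was led by Clca3b, Nxpe2 and Trf in DC and by Ifitm3, Cdca7 and Clca3b in Si8. Among clusters of at least 20 cells it had the highest level of Ascl2, Smoc2, Axin2, Clca3b and Sox9 in all 4 libraries, though for Axin2 in Si8 1 the next cluster was close (39.3 against 39.1 CPM). Lgr5 stood there at 13.0, 9.42, 11.4 and 26.5 CPM, and in cluster 6, which holds mitotic cells, at 13.2, 8.13, 1.88 and 8.18 CPM. Ascl2 stood at 22.7, 19.2, 7.61 and 20.3 CPM in cluster 9 and at 12.9, 11.7, 3.01 and 7.97 CPM in cluster 6, the next highest in each library.

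Of the cells with an Lgr5 UMI, 64.4%, 61.8%, 34.8% and 46.1% lay in cycling-like clusters and 32.2%, 27.5%, 26.1% and 31.2% in cluster 9. Cluster 3, which is Paneth-like in Si8, held 1.69%, 5.34%, 34.8% and 18.0% of them, beside 12.5%, 11.9%, 18.6% and 10.1% of all kept cells. Lgr5-positive cells of the colon were thus rarely in cluster 3. The share of Si8 1 rests on 8 of 23 cells, with an interval of 16.4 to 57.3% that includes the 18.6% of all kept cells.

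**Figure D3:**
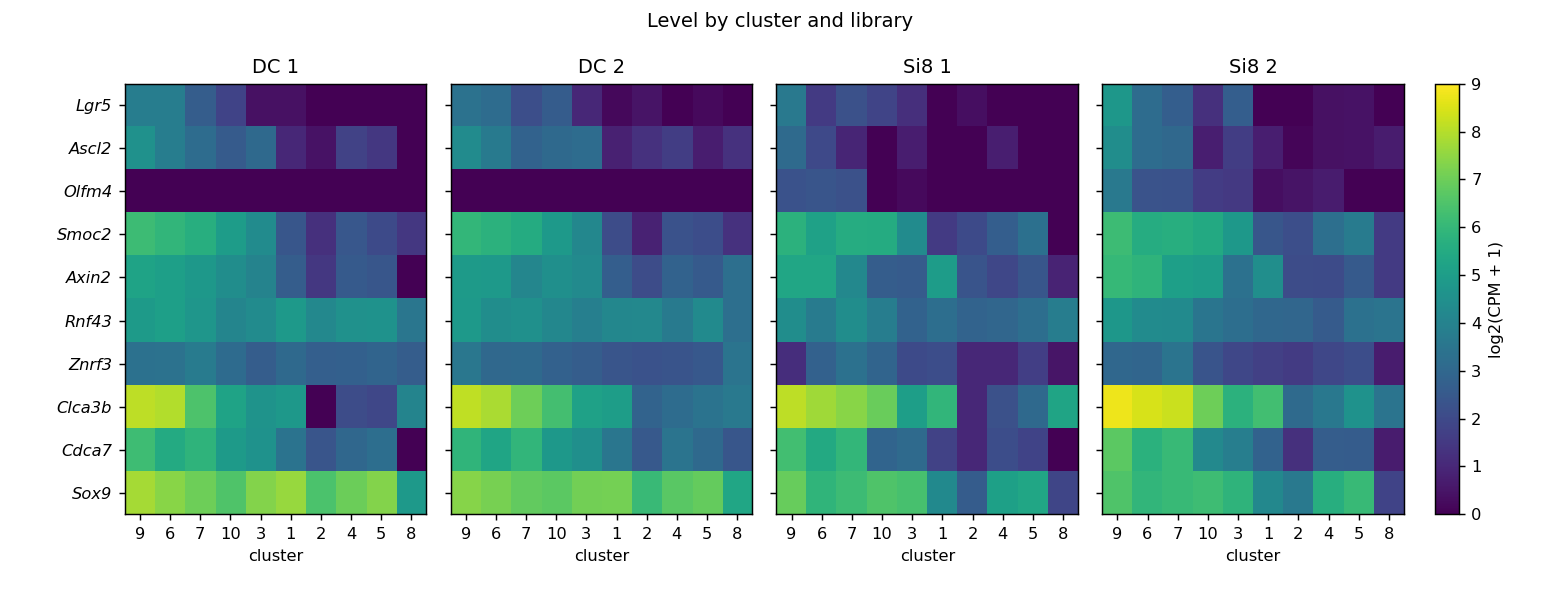
Level of each gene as log2(CPM + 1), by colour, in clusters 1 to 10 of each library. Most genes are highest in cluster 9, with Clca3b at 271 to 436 CPM there, while Sox9 is high across nearly all colon clusters and Olfm4 is at 0 in DC.

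The genes most like Lgr5 were sought over 20 sums of cluster by library in each region, among 6322 genes with at least 20 CPM in a sum of each region, by the smaller of the 2 Pearson r values of log2(CPM + 10). The sums share libraries and depth, so r is a description. Ascl2 ranked first (r = 0.904 in DC and 0.945 in Si8), and in Si8 it reached 20 CPM only in cluster 9 of Si8 2 (20.3 CPM). Of the other members Cdca7 ranked 5, Smoc2 14, Clca3b 21, Axin2 57, Rnf43 264 and Sox9 1448, and Olfm4 and Znrf3 did not reach 20 CPM in both regions. The first 8 genes outside the list were Rgcc (r = 0.891 and 0.928), Sox4, Ifitm3, Cnn3, Cd44, Mfge8, Clic6 and Aqp1. With 20 CPM required in 1 region only, other genes can enter. In the colon alone the first 5 were then Trf, Nox1, Bex1, Gsta3 and Cttnbp2, and Trf, the transferrin gene, had r = 0.943 there and 0.109 in Si8. In Si8 alone they were Amica1, Rgcc, Efna4, Sox4 and Cd320. Cttnbp2 had r = 0.916 in DC and 0.920 in Si8, above Ascl2 by the smaller r. It was not ranked with Ascl2 because it did not reach 20 CPM in Si8.

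Within the Lgr5-positive cells, which Lgr5 itself chose, Olfm4 and Axin2 were lower in the colon. Olfm4 had 0 UMIs in both colon sums and stood at 9.29 and 14.7 CPM in Si8, at least 18.7-fold more with the Si8 libraries pooled (adjusted p = 2.7e-05 with edgeR). Axin2 stood at 48.3, 53.5, 34.5 and 73.7 CPM, so the regions overlapped (log2 fold change -0.84, SE 0.25, adjusted p = 0.0498 with edgeR). Its call was lost in 7 of 13 alternatives, among them without Si8 2 (-0.24, adjusted p = 0.77), without DC 1 (-0.72, adjusted p = 0.29) and without DC 2 (-0.94, adjusted p = 0.18).

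Sox9 stood at 175, 167, 92.9 and 91.6 CPM in the Lgr5-positive cells, Smoc2 at 115, 104, 66.4 and 83.7 CPM and Ascl2 at 30.3, 35.1, 5.31 and 22.2 CPM. In CPM none of these 3 overlapped between the regions, nor did Rnf43 and Znrf3. None of these genes passed with all 4 libraries under TMM scaling. The fitted value of Smoc2 was negative under that scaling and 0.51 with library totals. Without Si8 2 Ascl2 passed as higher (1.82, adjusted p = 0.025 with edgeR). With library totals Sox9 (0.89, adjusted p = 0.0052) and Ascl2 (0.89, adjusted p = 0.028) passed as higher with edgeR. Of the 9 members tested, 2 were lower and 0 higher, beside 10.1% of 9299 genes (6.17% higher, 3.95% lower). Library totals gave 3334 higher and 208 lower genes in place of 574 and 367, with the median of all genes at 0.63 in place of 0.01.

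In cluster 9, whose comparison was added after its member levels were seen, Sox9 was higher and Lgr5, Axin2 and Olfm4 lower in the colon. Sox9 stood at 222, 166, 119 and 90.0 CPM, with no overlap (0.87, SE 0.22, adjusted p = 0.013 with edgeR). The Lgr5 levels given above rest on 24, 49, 9 and 98 UMIs and overlap between the regions (-1.09, SE 0.34, adjusted p = 0.038 with edgeR). Axin2 stood at 36.3, 28.6, 39.3 and 65.1 CPM, and the regions did not overlap (-0.86, SE 0.24, adjusted p = 0.024 with edgeR). Olfm4 had 0 UMIs in the colon and 3 and 42 in Si8, at least 23.6-fold more with the Si8 libraries pooled (adjusted p = 0.00022 with edgeR). The 3 UMIs of Si8 1 are at the floor.

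Smoc2 stood at 71.5, 61.5, 54.6 and 70.8 CPM in cluster 9 (log2 fold change -0.02, SE 0.20), and the regions overlapped. In all, 4 of 10 members passed, beside 18.3% of 10025 genes (10.5% higher, 7.78% lower). Without Si8 2 Znrf3 alone passed (2.96, adjusted p = 0.036 with edgeR), and Olfm4 was too low to be tested. Without Si8 1 Cdca7 and Clca3b passed as lower besides the 4 (-0.78 and -0.71, adjusted p = 0.0047 and 0.0064 with edgeR). Without DC 2 Olfm4 and Sox9 alone passed, as with DESeq2, and without DC 1 Sox9 did not (0.66, adjusted p = 0.13 with edgeR). In the same cells Paneth markers summed to 736, 704, 6988 and 10737 CPM, with 11 of 15 at 0 in either colon library, goblet markers to 21932, 24759, 65921 and 47051 CPM and cycling markers to 929, 1076, 1051 and 1787 CPM. Their part in these differences was not tested.

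Cells rich in Muc2, the secreted mucin of goblet cells, held little of most members. In each library the cells were ranked by the Muc2 share of their UMIs and split into 3 equal ranges. The Muc2-high range began at 4704, 5314, 14708 and 10533 CPM of Muc2, and 279, 740, 329 and 349 cells lay within 1.2-fold of that level, so the ranges are not cell types. Its cells were shallower, at a median of 10745.5, 9903, 7913 and 18067.5 UMIs against 17106.5, 16024, 21635 and 26086 in the Muc2-low range. With library as a block, 8 of 10 members were lower in the Muc2-high than in the Muc2-low range and 0 higher, beside 30.8% of 12197 genes (15.7% lower, 15.1% higher). The median log2 fold change was -2.89 over the members and 0.00 over all genes. With library totals the latter became -0.41, with 702 genes higher and 3403 lower in place of 1839 and 1917.

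Lgr5 had 0, 8, 0 and 0 UMIs in the Muc2-high and 67, 144, 26 and 229 UMIs in the Muc2-low cells (adjusted p = 0.0069 with edgeR). In CPM these were 0, 0.510, 0 and 0 against 6.07, 5.48, 2.25 and 10.4. The UMIs of DC 2 lay in 8 of 1574 Muc2-high cells (0.508%, interval 0.220 to 0.999%), spread over clusters 2, 3, 5, 6 and 9. That interval overlaps the one of the absorptive-like cells of the library (0.0256 to 0.760%), at median depths of 9903 and 13556.5 UMIs. Such intervals cover counting error within 1 library only, so whether the share lies above background was not tested. In DC 1, Si8 1 and Si8 2, 0 of 610, 0 of 497 and 0 of 732 cells allow up to 0.492%, 0.604% and 0.410%, again as 3 over the number of cells. Muc2 itself stood at 941, 1253, 2590 and 1532 CPM in the Lgr5-positive and at 3372, 3674, 9963 and 7136 CPM in the other cells.

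Ascl2 stood at 0.970, 2.11, 0.189 and 0.151 CPM in the Muc2-high and at 11.1, 9.90, 1.64 and 8.29 CPM in the Muc2-low cells (log2 fold change -3.01, SE 0.48, adjusted p = 0.0076 with edgeR). Clca3b stood at 8.25, 25.01, 15.5 and 9.76 CPM against 124, 149.8, 112 and 273 CPM (-3.10, SE 0.37, adjusted p = 0.0041). Smoc2, Cdca7 and Axin2 had log2 fold changes of -2.97, -2.80 and -2.15, and each was lower in 4 of 4 libraries. Olfm4 had 0 and 5 UMIs in the Muc2-high and 19 and 107 in the Muc2-low cells of Si8 (adjusted p = 0.030 with edgeR), and none in the colon. In CPM the Si8 values were 0 and 0.378 against 1.64 and 4.85. Most of these UMIs came from Si8 2. Without Si8 1 or without Si8 2 the gene was too low to be tested. The call was kept in 5 of the 6 alternatives that could be fitted. Znrf3 had a smaller value of -0.88 (SE 0.27, adjusted p = 0.043), a call kept in 6 of 10 alternatives.

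Rnf43 and Sox9 did not pass this test. Rnf43 stood at 18.3, 16.1, 9.27 and 6.65 CPM in the Muc2-high and at 24.2, 20.6, 10.7 and 15.6 CPM in the Muc2-low cells (log2 fold change -0.14, SE 0.20, adjusted p = 0.60 with edgeR). Sox9 stood at 118, 107, 11.3 and 18.2 CPM against 156, 135, 66.1 and 56.9 CPM (-0.77, SE 0.31, adjusted p = 0.097). Both had a lower CPM in the Muc2-high cells of each library.

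**Figure D4:**
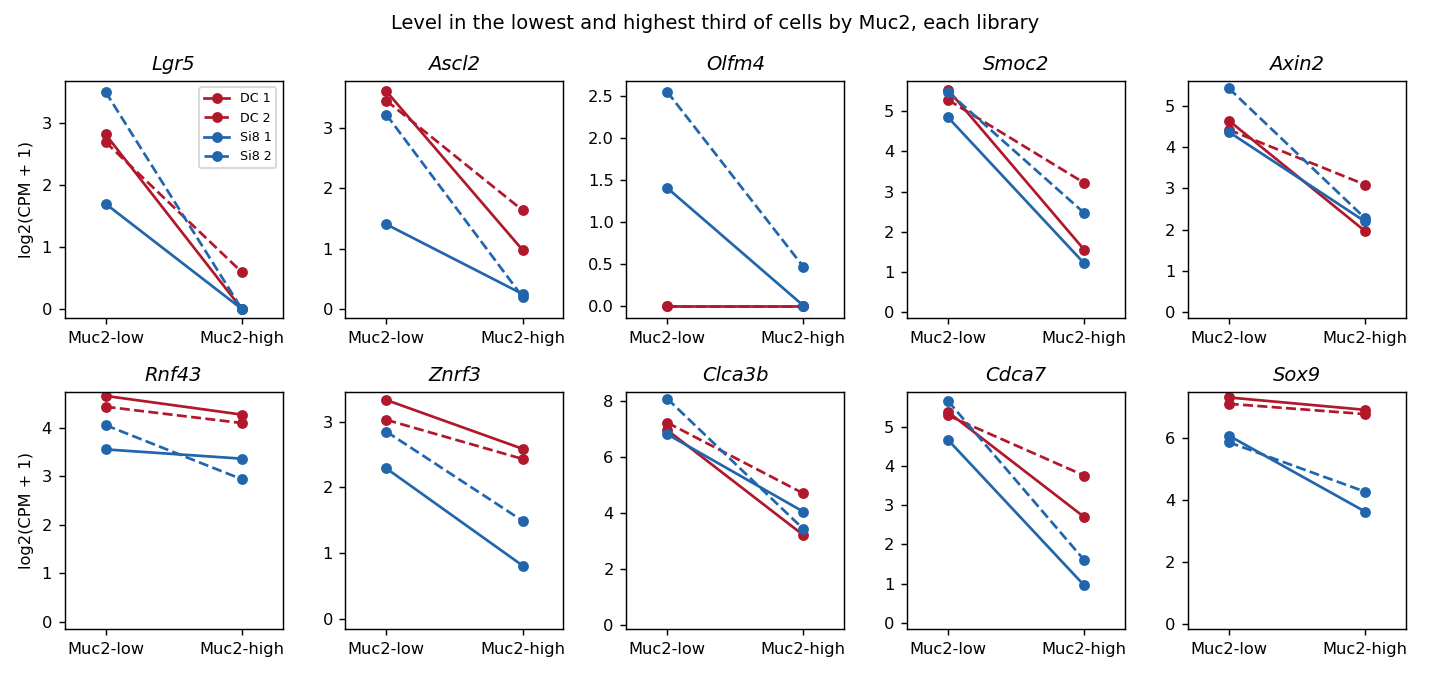
Level of each gene as log2(CPM + 1) in the lowest and the highest of the 3 Muc2 ranges, with 1 line per library (red DC, blue Si8, solid replicate 1, dashed replicate 2). The lines fall for most genes, to 0 for Lgr5 in 3 libraries, and fall little for Rnf43 in 3 libraries and for Sox9 in DC.

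Among the Muc2-high cells, Sox9 and Cdca7 were higher in the colon. The Sox9 values just given do not overlap between the regions (log2 fold change 2.15, SE 0.26, adjusted p = 0.0013 with edgeR). Thinning to 5000 UMIs kept 500, 1449, 386 and 732 of the Muc2-high cells, the shallower ones being left out. Sox9 was then found in 38.4%, 37.3%, 4.66% and 8.61% of the Muc2-high and in 57.0%, 47.0%, 7.53% and 8.31% of the absorptive-like cells of the same libraries. Cdca7 stood at 5.50, 12.5, 0.946 and 2.04 CPM, on 34, 196, 5 and 27 UMIs, with no overlap (1.74, SE 0.49, adjusted p = 0.035 with edgeR). Its call was kept in 11 of 14 alternatives, and lost without DC 2 (1.10, adjusted p = 0.32), with 2 equal ranges in place of 3 (0.96, adjusted p = 0.15), and with all cells of at least 2000 CPM of Muc2, where the value turned to -0.08.

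The Muc2-high ranges did not hold the same kinds of cell. Clusters 2, 4, 5 and 8 made up 89.2%, 72.7%, 94.6% and 95.8% of them and cycling-like cells 2.30%, 6.54%, 0.402% and 0.137%. The unnamed cluster 8, led by Slfn4, Saa1 and Clca1 in DC and by Ido1 and Saa1 among others in Si8, by itself held 19.5%, 6.93%, 52.1% and 14.9% of the Muc2-high cells. Over all kept cells of cluster 8, Sox9 was the lowest among clusters of at least 20 cells, at 27.9, 39.1, 2.64 and 2.50 CPM. Median depths there were 4095, 4235.5, 5871 and 14630 UMIs. In all goblet-like cells, which leave cluster 8 out, Sox9 averaged 96.4 CPM in the colon and 25.7 CPM in Si8. The part of cluster 8 in the comparison was not tested. Within clusters 2, 4, 5 and 8 alone, Muc2-high cells had Cdca7 at 4.87, 6.42, 1.01 and 1.83 CPM and Sox9 at 111, 89.4, 9.46 and 18.5 CPM, with the colon above Si8 for both genes. Without cycling-like cells Cdca7 had a log2 fold change of 1.56 (adjusted p = 0.037 with edgeR).

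Lgr5, Ascl2 and Olfm4 were too low to be tested in the Muc2-high cells, and the remaining 5 members did not pass. Znrf3 stood at 5.01, 4.40, 0.757 and 1.81 CPM (0.97, adjusted p = 0.14 with edgeR) and Rnf43 at the levels given above (0.37, adjusted p = 0.34). In CPM, which carry no TMM factors, both had no overlap between regions. Both passed with library totals (adjusted p = 0.016 and 0.010 with edgeR). In all, 2 of 7 members were higher and 0 lower, beside 28.7% of 11159 genes (13.6% higher, 15.1% lower), a share near the background. Library totals moved the median of all genes from 0.03 to 0.79, and the split from 1518 higher and 1684 lower to 5619 and 713.

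Whether the step from Muc2-low to Muc2-high differed between the regions was tested as an interaction. With edgeR 0 of 10 members passed, beside 2.80% of 12197 genes (1.71% higher, 1.09% lower). At an unadjusted p under 0.05 there were 4: Cdca7 (2.12, SE 0.48, adjusted p = 0.061), Sox9 (1.32, SE 0.33, adjusted p = 0.078), Ascl2 (2.17, adjusted p = 0.20) and Lgr5 (adjusted p = 0.21), whose fit rests on the 8 UMIs of DC 2. DESeq2 called Cdca7 and Sox9 (adjusted p = 0.022 and 0.023), as did edgeR without a filter on low counts or with library totals. Library totals moved the median of all genes from 0.07 to 0.43, with 1201 higher and 149 lower genes in place of 209 and 133.

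In the absorptive-like cluster 1, Axin2 and Clca3b were lower and Sox9 and Rnf43 higher in the colon. This comparison was added after the levels by cluster were seen. Axin2 stood at 5.23, 5.46, 30.6 and 21.1 CPM (log2 fold change -2.42, SE 0.26, adjusted p = 4.8e-05 with edgeR). After thinning, 1.55%, 2.40%, 11.8% and 10.6% of the cells of this cluster held it, and 1.11%, 2.89%, 2.21% and 2.00% of the goblet-like cells. Clca3b stood at 26.8, 31.0, 59.9 and 75.8 CPM (-1.46, SE 0.17, adjusted p = 8.3e-05 with edgeR).

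Sox9 stood at 197, 139, 18.2 and 17.4 CPM in the absorptive-like cells (log2 fold change 3.0, SE 0.21, adjusted p = 1.9e-06 with edgeR) and Rnf43 at 28.1, 17.1, 8.62 and 6.98 CPM (1.29, SE 0.29, adjusted p = 0.0056). None of the 4 genes overlapped between the regions, and all 4 kept their direction whichever library was left out. Rnf43 lost its call without Si8 2 (1.04, adjusted p = 0.083), and Cdca7 passed as higher in 4 of 10 alternatives, one of them without Si8 2 (1.86, adjusted p = 0.019). Of 7 members tested, 2 were higher and 2 lower, beside 33.9% of 10687 genes (17.0% higher, 16.9% lower). Library totals moved the median of all genes from 0.03 to 0.25, with 2736 higher and 1270 lower genes in place of 1820 and 1807.

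The absorptive-like cells of the regions were led by different genes, Tgm3, Car1 and Slc26a3 in DC and Fabp6, Slc51a and Slc51b in Si8. Absorptive markers summed to 3810, 3653, 22987 and 28563 CPM, with 8, 8, 8 and 5 of 39 at 0, and goblet markers to 36303, 31669, 126016 and 86975 CPM. Their part in these differences was not tested. In the goblet-like cells, drawn from clusters 2 and 4 in DC and from cluster 5 as well in Si8, Axin2 stood at 3.19, 4.86, 3.73 and 3.504 CPM, where the regions overlapped.

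**Figure D5:**
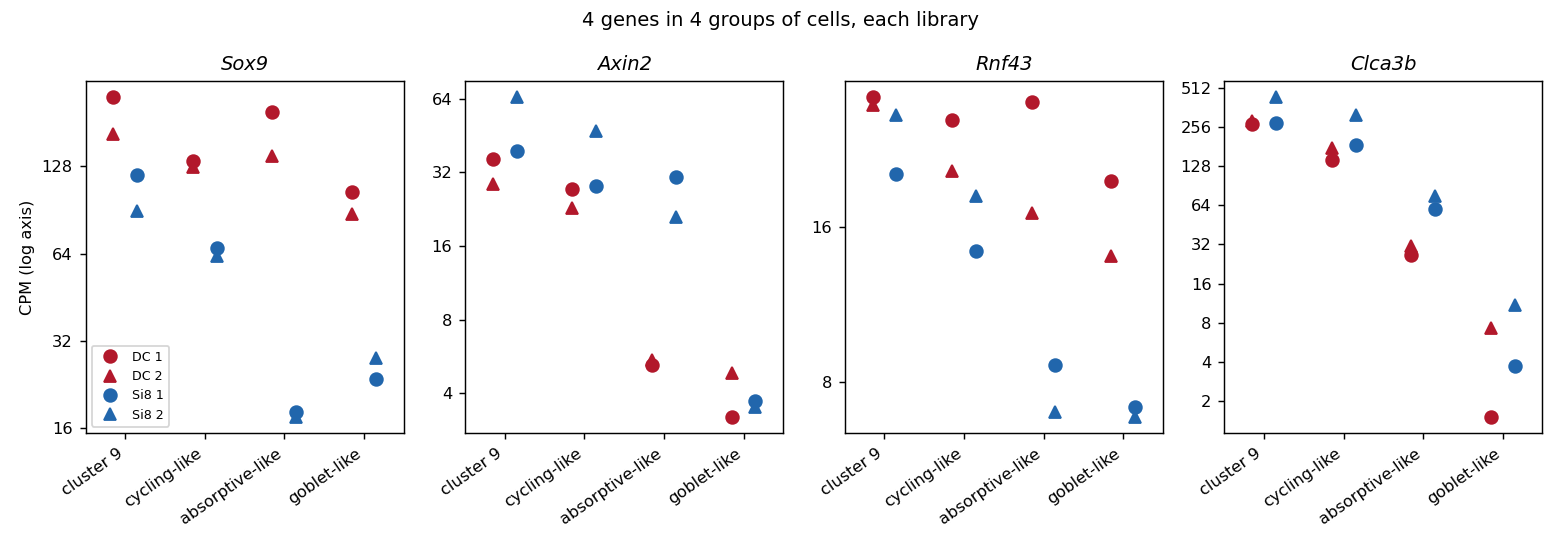
CPM on a log axis of Sox9, Axin2, Rnf43 and Clca3b in cluster 9 and in the cycling-like, absorptive-like and goblet-like cells of each library (red DC, blue Si8, circles replicate 1, triangles replicate 2). Axin2 of absorptive-like cells lies at 21.1 to 30.6 CPM in Si8 and at 5.23 to 5.46 CPM in DC, and Sox9 of the same cells at 17.4 to 18.2 and at 139 to 197 CPM.

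The rest of the pathway was read from lists, beside the 24.9% of genes called in all kept cells. Of 20 nuclear and destruction complex genes tested, 2 were higher and 2 lower in the colon. Tcf7l1, a TCF factor that acts largely as a repressor, stood at 120.0, 116, 2.47 and 1.74 CPM (log2 fold change 5.42, SE 0.24, adjusted p = 0.00024 with edgeR), with both colon values far above both Si8 values. The corepressor gene Tle4 was higher in the colon (49.6, 37.0, 16.7 and 17.1 CPM) and its relative Tle1 lower (18.3, 19.2, 51.0 and 37.6 CPM). Of 14 receptor genes 4 were higher and 2 lower, of 4 secreted or feedback inhibitors 2 were higher and 0 lower, and of 5 ligand and R-spondin genes 0 were higher and 1 lower. No called gene of these 3 lists reached a mean of 20 CPM.

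Of 20 other Wnt targets tested, 3 were higher and 8 lower in the colon. Lrig1, which restrains growth factor receptors and marks stem cells, stood at 68.2, 55.2, 12.3 and 19.4 CPM (1.54, adjusted p = 0.0069 with edgeR), with no overlap. Bambi, which inhibits TGF-beta signalling, had a log2 fold change of 1.40, and the transcription factor genes Zfp703 and Id2 had -2.19 and -1.98. Mmp7, which Paneth cells use to activate defensins, stood at 0.0381, 0.0793, 685 and 454 CPM. The 15 Paneth markers, of which Mmp7 is one, summed to 1011, 1146, 28718 and 50226 CPM, and 14 of 15 were lower in the colon. The part of Paneth cells in the Mmp7 value was not tested. Of 34 other stem cell markers tested, 10 were higher and 9 lower, among them Aqp4 (2.74) and Mecom (2.06) higher and Prom1 (-1.92) and Aqp1 (-1.59) lower on the log2 scale.

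In cluster 9, where 18.3% of all genes tested were called, the same lists gave 1 of 10 receptor genes lower, 1 of 19 nuclear and destruction complex genes higher and 1 lower, 3 of 18 other targets higher and 7 lower, and 8 of 29 other stem cell markers higher and 8 lower. The genes named next were chosen after their values were seen. Tcf7l1 again stood high in the colon (106, 115, 3.81 and 0.811 CPM). The Wnt receptor gene Fzd5 was lower there (28.2, 36.1, 58.4 and 67.3 CPM, adjusted p = 0.0044 with edgeR), as was the cyclin gene Ccnd1 (65.5, 87.7, 217 and 195 CPM). Igfbp4, a binder of insulin-like growth factors, stood at 4.33, 2.50, 41.9 and 54.3 CPM (-4.07, adjusted p = 6.6e-07 with edgeR).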

How the data were processed

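The deposited values are UMI counts, 1 per gene in each barcode, with no normalization. Per the submitters' processing notes, the tool was Cell Ranger 2.1.1 and the build mm10. The members and all gene lists were chosen with earlier results of these data known. A barcode was taken as a cell from 500 detected genes upward, unless mitochondrial genes held over 20% of its UMIs. Scrublet (scanpy 1.11.5) marked too few doublets by its own threshold, so its highest scores were removed at 0.8% per 1000 cells. Clustering used 2000 variable genes without any listed gene, 30 principal components, 5 neighbours per library and Leiden at a resolution of 1.0. A cluster was named "-like" in each region when its 50 leading genes held at least 3 markers of a class, more than of any other, with at least 1 among the first 10 genes and no other class holding more there. UMIs were summed per library and tested with edgeR 4.0.16 quasi-likelihood (TMM, minimum count of 10, Benjamini-Hochberg threshold of 0.05), after a check on simulated counts. The 2 Muc2 ranges of a library were compared with library as a block. With 2 against 2 libraries an exact permutation test cannot go below 0.333, so none is given. CPM are scaled to each library's own total, while folds carry TMM factors. All 10 members are named; genes of other lists are the 3 with the largest change in each direction at 20 CPM or more. Alternatives were DESeq2 1.42.0, other scalings, filters, thinning, doublets kept and left-out libraries. The planned stem-like comparison was not run, since no cluster took that name.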

Additional observations from a re-analysis of the deposited data

How the results depend on the processing

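The tests across genes were recomputed under the alternatives set for each, which gave 714 fitted values of members in all. Keeping doublets was tried for all kept, Muc2-high and Lgr5-positive cells, and leaving out cycling-like cells for every test but those of Lgr5-positive cells, cluster 9 and absorptive-like cells. The ranking by likeness to Lgr5 and the pathway lists had no alternative. Of the 714 values, 600 kept direction and side of the threshold, 39 newly passed, 24 no longer passed and 51 changed sign. Counts of members or genes called are not among them. Some settings themselves left fewer cells, UMIs or libraries, and the cause of a change was not tested. The main counts of genes called were 3253 in all kept cells, 3202 in Muc2-high cells, 941 in Lgr5-positive cells, 1837 in cluster 9, 3627 in absorptive-like cells, 3756 between the Muc2 ranges and 342 for the interaction.

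Library totals in place of TMM called 4 members in all kept cells, 4 in Muc2-high cells and 2 for the interaction, and 5171, 6332 and 1350 genes. In Lgr5-positive cells they called 3542 genes. Signs changed for Lgr5 (0.057), Smoc2 (0.19) and Cdca7 (0.34) in all kept cells, for Axin2 (0.55) and Clca3b (0.47) in Muc2-high cells, for Smoc2 (0.51), Rnf43 (0.53), Clca3b (0.34) and Cdca7 (0.11) in Lgr5-positive cells, and for Smoc2 in cluster 9 (0.030) and in absorptive-like cells (0.0023). Without a filter on low counts 5 of 10 members and 4168 of 18273 genes were called in all kept cells, where Clca3b, Rnf43 and Axin2 joined. For the interaction that setting called 2 members and 1241 genes. DESeq2 called 1 member and 479 genes in Lgr5-positive cells, 2 and 1010 in cluster 9, and 2 and 642 for the interaction, with Rnf43 at -0.050.

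Thinning to 2000 UMIs called 1 member in all kept cells, 1 in Muc2-high cells, 0 in Lgr5-positive cells, 0 in cluster 9 and 5 between the ranges, with fewer members tested, and 1682, 1012, 174, 280 and 2080 genes, besides 1088 in absorptive-like cells and 76 for the interaction. Rnf43 stood at 0.068 between the ranges and at -0.12 for the interaction. Without cycling-like cells 1 of 9 members tested and 3684 of 12638 genes were called in all kept cells. Cdca7 stood at 0.018 there and Smoc2 at -0.42 in Muc2-high cells. The same setting called 2107 genes between the ranges and 56 for the interaction, with Rnf43 at -0.012 and Clca3b at -0.35. Splitting into 2 equal Muc2 ranges called 1 of 8 members tested and 3470 of 11815 genes in the upper one, with Smoc2 at -0.29. It gave the interaction 123 genes, with Smoc2 at -0.10 and Rnf43 at -0.019. With Muc2 at 2000 CPM or more Smoc2 stood at -0.89 and Cdca7 at -0.082, and with doublets kept Smoc2 in Muc2-high cells at -0.16. With at least 2 Lgr5 UMIs 1 member and 529 genes were called.

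With the replicate number as a block Cdca7 stood at 0.017 in all kept cells and Znrf3 at -0.011 in Lgr5-positive cells, and Cdca7 joined the calls in cluster 9 (-0.60) and absorptive-like cells (0.87). The block called 3923, 4340, 1053, 2500 and 4417 genes in the 5 region comparisons. The first libraries of the regions deviated together with r = 0.132 over 13084 genes, and with 2 pairs the libraries share a number only. Between the Muc2 ranges, the fit without the library block called 7 of 9 members tested, beside 4214 of 11790 genes.

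Leaving out each library in turn gave 2 to 5 members called in all kept cells, 1 to 3 in Lgr5-positive cells, 1 to 6 in cluster 9 and 0 to 2 for the interaction. Values ranged over -0.95 to 0.98 for Lgr5, -0.48 to 0.12 for Smoc2 and -0.46 to 0.51 for Cdca7 in all kept cells. In Muc2-high cells they were -1.36 to 1.26 for Smoc2, -1.05 to 0.26 for Axin2 and -1.30 to 0.24 for Clca3b, and in Lgr5-positive cells -0.15 to 0.083 for Rnf43, -0.19 to 0.44 for Znrf3 and -0.65 to 0.24 for Clca3b. In cluster 9 they were -0.041 to 1.40 for Ascl2 and -0.16 to 0.25 for Smoc2, in absorptive-like cells -0.47 to 0.64 for Smoc2 and between the ranges -0.32 to 0.015 for Rnf43. For the interaction they were -0.011 to 2.72 for Ascl2, -1.25 to 1.03 for Smoc2, -0.33 to 1.203 for Axin2, -0.65 to 0.46 for Rnf43 and -0.75 to 1.29 for Clca3b. Genes called ranged over 1411 to 4060 in all kept cells, 1731 to 4305 in Muc2-high cells, 573 to 1215 in Lgr5-positive cells, 1181 to 2383 in cluster 9, 2360 to 3687 in absorptive-like cells, 1203 to 3649 between the ranges and 253 to 1132 for the interaction.

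The comparison of stem-like cells and its alternatives were not run because no cluster took that name at any resolution tried. With 2 libraries a region, a left-out library leaves an arm with 1, assumed to vary like the others. Low UMI counts limit Lgr5, Ascl2, Olfm4 and Znrf3, and a fitted fold of a gene at 0 in a region depends on the prior count. Clusters and their names were rebuilt here, so their borders depend on the settings used.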
